A study of Homo sapiens with 15 samples.

Results

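The 34 genes described here are well-known transcriptional targets of p53, taken as a fixed list of names and read from every array probe that carries 1 of those names. Of the 34 genes, 33 had a probe on the array and TP53AIP1 had none under that name. The 33 genes were covered by 48 of the 41000 probes, 23 genes by a single probe and 10 by several, and they were 33 of the 23012 genes whose signal was high enough for a test. The cells were A549, a human lung adenocarcinoma line that carries wild-type p53 and lacks the CDKN2A locus. Each array compared, in 2 colours, A549 cells transfected with a synthetic miRNA (the mimic, Cy5) with A549 cells transfected with an antagomir of the same miRNA (Cy3), both at 20 nM and both harvested at 24 h. The 5 miRNAs were miR-766, miR-629*, miR-181d, miR-574-3p and miR-565, which the series labels describe as radio-responsive, with 3 arrays each and 15 in all. No array held untransfected cells or cells given an unrelated oligonucleotide, and the dyes were never exchanged, so a ratio of 1 miRNA alone cannot be told apart from a dye effect, and a mimic that lowers a transcript cannot be told apart from an antagomir that raises it by the ratio alone. The labels do not say whether the 3 arrays of a miRNA came from separate transfections, so the p-values measure only the spread between these arrays.

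p53 is a transcription factor that is held at a low level by MDM2 and MDM4 and that accumulates when DNA is damaged. It then binds response elements built of a pair of half-sites and raises genes that stop the cell cycle, repair DNA, buffer oxidative stress or start apoptosis, and among these genes is MDM2 itself, which closes a negative feedback loop. A miRNA acts on such a network from outside by pairing its seed, bases 2 to 8, with sites in messenger RNAs and lowering them.

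The mature sequences of the transfected miRNAs are shown because the seed is the part through which each would act. They were taken from RefSeq (GRCh38.p14), are written 5′ to 3′ with the seed in capitals, and share no seed with each other; miR-629* is the 3p strand of MIR629. miR-574-3p lies at chr4:38868092-38868113 on the plus strand, miR-181d at chr19:13874910-13874932 on the plus strand and miR-629* at chr15:70079387-70079408 on the minus strand. The reference sequences at hand held no entry for miR-565 or for the strand of miR-766 used here, and these are named only.
miR-574-3p: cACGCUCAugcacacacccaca
miR-181d: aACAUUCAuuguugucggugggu
miR-629*: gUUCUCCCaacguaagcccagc
The 7-base complement of the miR-574-3p seed, TGAGCGT, stood in 54 of the 41000 array probes (0.132%), that of miR-181d, TGAATGT, in 366 (0.893%), and that of miR-629*, GGGAGAA, in 268 (0.654%), and none of the 3 stood in any of the 48 probes of the p53 target genes. A probe covers 60 bases of a transcript, so this says nothing about sites elsewhere in it.

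The feedback loop of p53 is written in the second promoter of MDM2, which is shown here because MDM2 and the p53 response element define the list. A response element was searched as 2 half-sites of the p53 consensus, each with the core CNNG, 0 or 1 base apart and with at most 2 mismatches in all, in the 300 bases from 250 before to 50 after each RefSeq start site; the consensus is its own reverse complement, so 1 search covers both strands. Such a match stood in 187 of 35116 windows (0.533%). Of the 41 windows of 28 p53 target genes that matched a symbol, 4 held a match, in 3 genes. Both windows of the internal MDM2 promoter held the same match at chr12:68808923-68808942 on the plus strand, and the window chr12:68808767-68809066 reads as follows, with the match in capitals.
MDM2: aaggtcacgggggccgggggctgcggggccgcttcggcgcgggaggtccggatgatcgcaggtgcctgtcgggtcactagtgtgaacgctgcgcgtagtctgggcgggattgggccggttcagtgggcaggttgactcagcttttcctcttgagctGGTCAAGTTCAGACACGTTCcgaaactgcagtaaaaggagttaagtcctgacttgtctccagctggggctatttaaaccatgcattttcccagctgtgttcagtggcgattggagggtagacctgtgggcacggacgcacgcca
DDB2, which recognises UV damage, held a match without mismatch, with 1 base between the half-sites, at chr11:47214979-47214999, and FAS, a death receptor, held 1 with 2 mismatches at chr10:88991309-88991328, both on the plus strand.
DDB2: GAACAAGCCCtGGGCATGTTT
FAS: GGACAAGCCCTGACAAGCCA
No match in a window says only that these letters are not in it, since many p53 elements lie in introns or farther upstream.

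The probes of nearly all these genes gave a signal above background. In both channels of all 15 arrays the brightest probe was well above background for 32 of the 33 genes, and the exception was EDA2R, a death receptor of the TNF family, whose probe was well above background on 14 arrays in the mimic channel and 12 in the antagomir channel. A further 2 probes of POLK, a translesion DNA polymerase, were not well above background on any array and were not tested, while its other 2 probes were. The cells' identity was checked on markers: 8 of 8 epithelial and A549 markers, among them KRT8 and AKR1B10, were tested, and of the markers of other cell types reported here PTPRC, PECAM1, CDH5 and DES were not well above background on any array. ALB, GFAP, COL1A1 and CD3E were well above background on all 15 arrays in both channels, and GFAP was called as higher for miR-565 (0.55), though not without replicate 1 of miR-565 (0.40). Without that array GFAP was called as higher for miR-629* (0.38) and ALB for miR-181d (0.34). In the mean of the 5 ratios GFAP was called as higher with that array (0.35) and without it (0.32). A CDKN2A probe was well above background on all 15 arrays in both channels, although the locus is known to be deleted in this line, so a probe above background need not report the named gene. Passing this bar therefore does not show that a gene is expressed. Replicate 1 of miR-565 stood apart, with a median log2 ratio over all probes of 0.12 where the other 14 arrays lay between -0.05 and 0.01. It shared slide 1 with the 3 arrays of miR-181d. The counts of calls in the 5 ratios are given with and without it.

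When all 15 arrays were fitted together, 0 to 4 of the 33 genes were called per miRNA, where 2.30% to 14.3% of all genes were. When 1 array that stood apart was left out, 7 to 15 were, where 16.3% to 36.0% of all genes were, as given further on. A gene was called when its brightest probe had an adjusted p under 0.05 (limma with an intensity trend, Benjamini-Hochberg over all tested probes). Between mimic and antagomir, 2 of the 33 genes were called for miR-181d, where 6.36% of all genes tested were called, and 2 for miR-574-3p, where 5.47% were. For miR-629* 4 were called against 10.7% of all genes, and for miR-766 2 against 2.30%. For miR-565 no gene was called by limma against 14.3% of all genes, while 9 of the 33 had an unadjusted p under 0.05. Every one of the 10 calls was lower in the mimic channel, where the share of all genes called as lower was 2.69% for miR-181d, 2.65% for miR-574-3p, 4.52% for miR-629* and 0.743% for miR-766, and they fell on 7 genes: PHLDA3 in 4 miRNAs and ZMAT3, SFN, BAX, FDXR, PERP and PLK3 in 1 each. The median log2 ratio of the 33 genes was below 0 for each miRNA, down to -0.14 for miR-766, against 0.01 to 0.04 over all genes tested. With the slide as a random block, 3 genes were called for miR-181d (5.81% of all genes) and 1 for miR-574-3p (0.478%). None was then called in limma for miR-629* (0.0304%) or miR-766 (0%). Most of the 10 calls made without the block needed all 3 arrays of their miRNA. Leaving out any 1 array of miR-181d or of miR-766 ended both calls of that miRNA, and the calls of miR-629* fell to 0 without its replicate 2 or 3; the 2 calls of miR-574-3p held without replicate 1 or 3, and ZMAT3 alone held without replicate 2. In bulk RNA, less of a transcript per cell and fewer cells that hold it cannot be told apart.

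**Figure D1:**
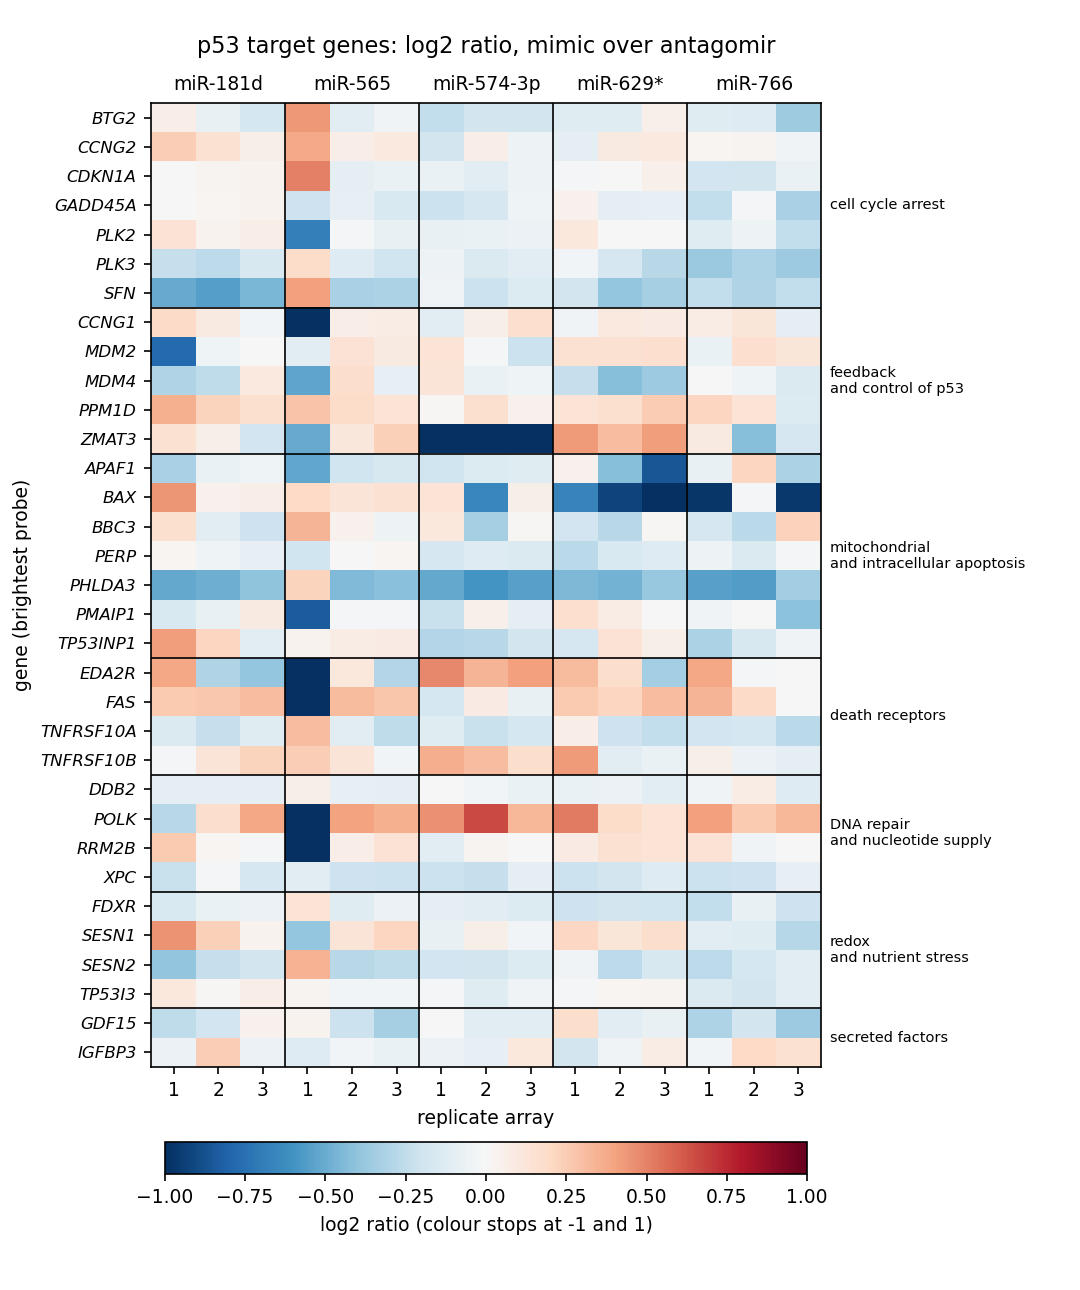
Each cell is the log2 ratio of mimic over antagomir of 1 p53 target gene (rows, brightest probe, grouped by role) on 1 array (columns, 3 replicates for each of 5 miRNAs), with blue for lower and red for higher in the mimic channel and the colour stopping at -1 and 1. ZMAT3 is dark blue on the 3 miR-574-3p arrays and nowhere else, PHLDA3 is blue on 14 of 15 arrays, and replicate 1 of miR-565 departs from its fellows in many rows.

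**Figure D2:**
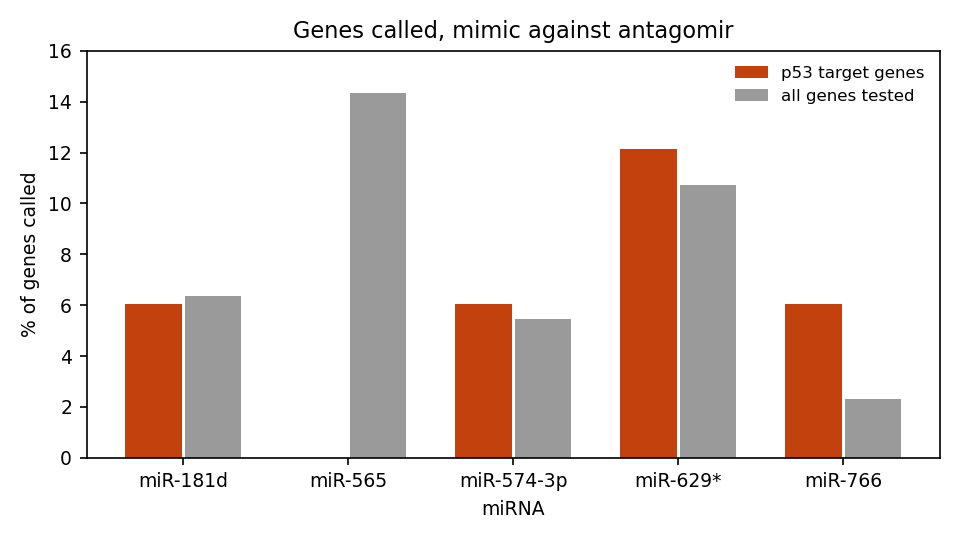
Bars give the percentage of genes called in each of the 5 comparisons of mimic with antagomir, in orange for the 33 p53 target genes and in grey for the 23012 genes tested. The shares differ by a few percentage points for 4 miRNAs, and for miR-565 the p53 target genes stand at 0 against 14.3%.

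ZMAT3, a zinc finger protein that binds RNA and is induced by p53, was lower with the miR-574-3p mimic than with the antagomir, and this was the largest difference among the 33 genes. Its only probe, at chr3:180224855-180224914 on the minus strand (NCBI36), gave log2 ratios of -2.53, -2.63 and -2.26 on the 3 miR-574-3p arrays. Over the remaining 12 arrays its ratio lay between -0.51 and 0.43, with a median of 0.10, so the groups did not overlap. The fitted log2 ratio was -2.47 (95% interval -2.82 to -2.12, adjusted p = 5.3e-06 in limma). ZMAT3 is among the genes that the study itself picked from these arrays as candidate targets of miR-574-3p, so its presence here is not independent evidence.

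The 2 channels of ZMAT3 did not share in this difference. The antagomir signal was 74.4, 79.9 and 84.5 on the miR-574-3p arrays and between 9.49 and 19.4 on the other 12. The mimic signal on the miR-574-3p arrays was 12.9, 12.9 and 17.7, inside the range of 12.3 to 17.7 on the other 12. With each dye quantile-normalized on its own, the antagomir channel of miR-574-3p was higher than that of the other miRNAs by 2.50 on the log2 scale (SE 0.12, adjusted p = 1.5e-09 in limma). There 8.54% of all genes were called. In the mimic channel the same comparison called 0 of 23012 genes in limma, so the lack of a call there says nothing about ZMAT3. Against the other 4 miRNAs the ratio of miR-574-3p differed by -2.51 (95% interval -2.90 to -2.13, adjusted p = 1.2e-05), a difference from which any dye effect shared by the arrays drops out. Within a slide, the difference from miR-565 was -2.76 on slide 2 (2 arrays each) and that from miR-629* was -2.64 on slide 3 (1 array against 3). The signal is low, and when the raw signals were instead corrected by normexp and loess the log2 ratio of ZMAT3 was -1.04, still called. In the same test the antagomir signals of the other miRNAs were lower than the rest for miR-565 (a log2 difference of -0.53), miR-629* (-0.92) and miR-766 (-0.64), each of which has the miR-574-3p arrays among the arrays it is set against.

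**Figure D3:**
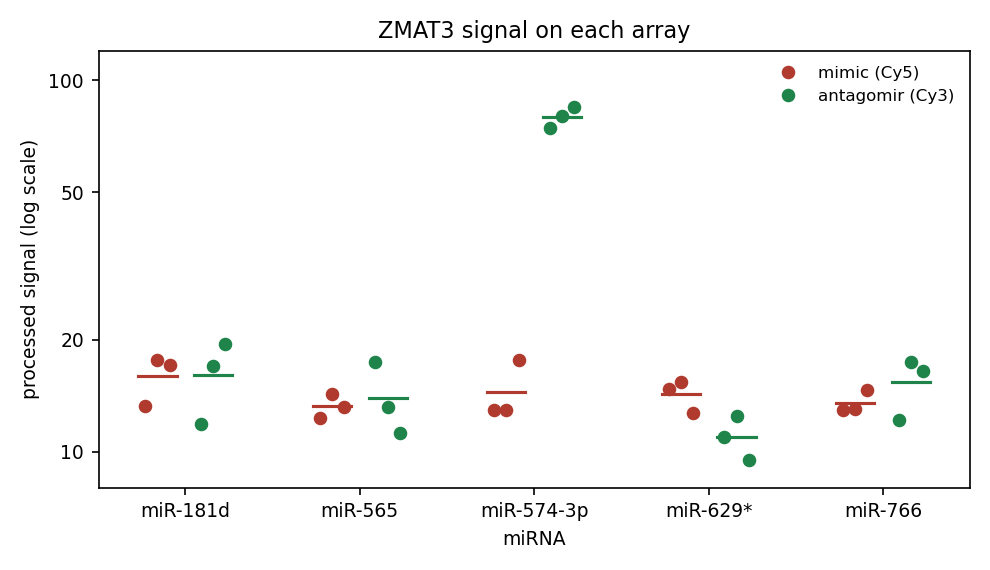
Points are the processed signal of the ZMAT3 probe on each array (log axis, arbitrary units), red for the mimic channel and green for the antagomir channel, with bars at the mean of 3 arrays. The 3 antagomir points of miR-574-3p sit between 74.4 and 84.5, and all other points lie below 20.

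In the fit of all 15 arrays, ZMAT3 was the only 1 of the 33 genes called for miR-574-3p against the other miRNAs, where 1.23% of all genes were called. No p53 target gene was called in limma for miR-181d (0% of all genes; 7 of 33 at an unadjusted p under 0.05), miR-565 (0.113%; 6), miR-629* (0.0478%; 2) or miR-766 (0.00869%; 5). Without replicate 1 of miR-565, a choice made after seeing the data, miR-574-3p had 3 calls against the other miRNAs (FAS and ZMAT3 lower, SFN higher), where 5.73% of all genes were called. In that fit SFN was also called as lower for miR-181d (a log2 difference of -0.25, adjusted p = 0.048 in limma), where 0.522% of all genes were called, and ZMAT3 as higher for miR-629* (1.0, adjusted p = 0.011), which has the miR-574-3p arrays among those it is set against, where 0.278% were. With the slide as a random block, 11 p53 target genes were called for miR-181d against the others, where 31.9% of all genes were: CCNG1, FAS, PHLDA3, PLK2, PMAIP1, POLK, RRM2B, SESN1, SESN2, SFN and ZMAT3. All 3 miR-181d arrays were on slide 1, where the only other array was replicate 1 of miR-565. Against that array miR-181d differed by 2.49 for POLK, 1.82 for FAS and 1.11 for CCNG1, and by -0.91 for SFN and -0.69 for PHLDA3. The block was not run without that array, so its part in these calls was not tested. The call of ZMAT3 for miR-574-3p held in each alternative run.

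PHLDA3, a small protein with a pleckstrin homology domain that holds back the kinase AKT, was lower in the mimic channel with nearly every miRNA. Its log2 ratios were -0.51, -0.48 and -0.40 for miR-181d, -0.51, -0.60 and -0.54 for miR-574-3p, -0.45, -0.47 and -0.38 for miR-629*, and -0.54, -0.56 and -0.35 for miR-766. For miR-565 they were 0.22, -0.44 and -0.42, and the value above 0 was that of replicate 1, the array that stood apart. The limma call passed for miR-181d (adjusted p = 0.017), miR-574-3p (0.0059), miR-629* (0.016) and miR-766 (0.025) and not for miR-565 (0.14). With the slide as a random block it held for miR-181d only (adjusted p = 0.036). Without replicate 1 of miR-565 the miR-565 ratio was -0.43 and was called as well (adjusted p = 0.00025). A difference in the same direction with 4 miRNAs, or with all 5 without that array, is a pattern in which the dye and the treatment cannot be told apart. Against the other miRNAs it was not called for any without the block. With the block it was called for miR-181d, which shared its slide only with replicate 1 of miR-565.

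BAX, a pore-forming protein of the mitochondrial outer membrane and a classical p53 target, was called as lower with miR-629* by its brightest probe, and its 3 probes did not move together. The brightest probe, A_23_P208706 at chr19:54156716-54156775 (NCBI36), gave log2 ratios of -0.67, -0.93 and -1.07 for miR-629* (fitted -0.89, SE 0.17, adjusted p = 0.0099 in limma). A second probe, A_23_P346311 at chr19:54150770-54150829, annotated to another transcript variant, gave -0.67, -0.94 and -1.07 (adjusted p = 0.0094). The third, A_23_P346309 at chr19:54150541-54150600, gave 0.01, -0.04 and 0.14 and was not called (adjusted p = 0.90). Mean signals in the mimic and antagomir channels were 5170 and 6275 for the brightest probe, 1079 and 1321 for the second, and 5730 and 5396 for the third. The third was thus nearly as bright as the brightest, and the gene's call depended on which of them was read. Without replicate 2 or replicate 3 of miR-629* the brightest probe was not called either (adjusted p = 0.061 and 0.096), and with the slide as a random block the call was lost (adjusted p = 0.45).

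The second and the first BAX probe ran in parallel on the other arrays as well. Both were low on replicates 1 and 3 of miR-766 (-0.97 and -0.97 for the brightest, -0.96 and -0.92 for the second) and near 0 on its replicate 2. Both were at -0.65 on replicate 2 of miR-574-3p, with its other replicates between 0.02 and 0.14. The third probe was at 0.06, -0.31 and 0.04 for miR-766, and its highest value, 0.95, was on replicate 1 of miR-565. The antagomir signal of the brightest probe was 5308, 9144 and 7061 for miR-629* and 6852, 5049 and 10862 for miR-766, with replicate 2 of miR-574-3p at 8015; the remaining 8 arrays of other miRNAs lay between 3777 and 6166. So arrays of 1 miRNA differed from each other on BAX by nearly as much as the means of the miRNAs did, and for miR-766 it was not called (adjusted p = 0.074). The sequence of the second probe is shown because it crosses the run of 8 G in the coding sequence that is known to gain and lose bases in tumours, here in capitals.
BAX: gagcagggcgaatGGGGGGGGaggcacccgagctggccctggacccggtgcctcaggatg
Of its 60 bases 73.3% are G or C, against a median of 41.7% over all probes. Whether base composition had a part in the split between the probes was not tested.

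**Figure D4:**
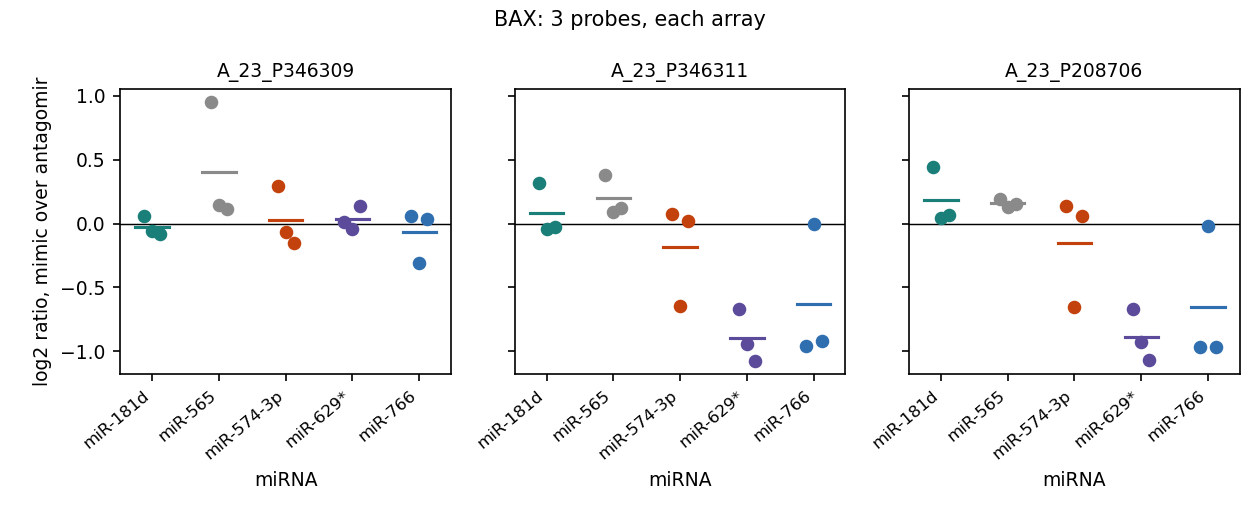
Each panel is 1 BAX probe and each point the log2 ratio of mimic over antagomir on 1 array, with a bar at the mean of 3 arrays of a miRNA. The middle and right probes fall together on the miR-629* arrays, on 2 of the miR-766 arrays and on 1 miR-574-3p array, and the left probe stays near 0 there.

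SFN encodes 14-3-3 sigma, which keeps cyclin B out of the nucleus at the G2 checkpoint. Its log2 ratios were -0.50, -0.55 and -0.45 for miR-181d (fitted -0.50, SE 0.11, adjusted p = 0.019 in limma), -0.19, -0.39 and -0.33 for miR-629*, -0.25, -0.30 and -0.25 for miR-766, and -0.04, -0.21 and -0.13 for miR-574-3p. For miR-565 they were 0.41, -0.33 and -0.32. The 3 values of miR-181d were the lowest of the 15, and the only value above 0 was again replicate 1 of miR-565. Without that array SFN was also called as lower for miR-565 (-0.32), miR-629* (-0.30) and miR-766 (-0.27). On slide 1, which miR-181d shared only with that replicate, miR-181d was lower by -0.91.

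PLK3, a stress-activated kinase, was lower with miR-766 on each array, at -0.37, -0.31 and -0.36 (fitted -0.35, SE 0.07, adjusted p = 0.024 in limma). Its values for the other miRNAs lay between -0.27 and 0.18, so the 3 miR-766 arrays were the lowest. All 3 were on slide 4, which held nothing else, so miRNA and slide cannot be told apart here. With the slide as a random block the call was lost, while the log2 ratio lay between -0.37 and -0.32 over the alternatives run.

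FDXR and PERP were lower with miR-629* by small amounts. FDXR, the mitochondrial ferredoxin reductase, was at -0.21, -0.18 and -0.20 (adjusted p = 0.025 in limma), and PERP, a membrane protein of desmosomes with a part in p53-dependent apoptosis, was at -0.27, -0.15 and -0.13 (adjusted p = 0.031). On slide 3 the difference of miR-629* from the 1 array of miR-574-3p was -0.06 for FDXR and -0.04 for PERP. Both calls were lost with the slide as a random block, without the intensity trend and without any 1 of the 3 miR-629* arrays, and that of PERP with median centring too.

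CDKN1A, which encodes the cyclin-dependent kinase inhibitor p21 and is the classical readout of p53 activity, was called in none of the 5 ratios. Its brightest probe gave 0.02 for miR-181d (95% interval -0.17 to 0.21), 0.11 for miR-565 (-0.08 to 0.30), -0.08 for miR-574-3p (-0.27 to 0.11), 0.01 for miR-629* (-0.18 to 0.20) and -0.14 for miR-766 (-0.33 to 0.05). Single arrays lay between -0.19 and 0.05, apart from replicate 1 of miR-565 at 0.50. Without replicate 1 of miR-565, the miR-766 value of -0.14 was called (adjusted p = 0.0084). The dimmer probe of CDKN1A was below 0 on 14 of 15 arrays, with -0.44, -0.50 and -0.52 for miR-766, and was not called in any of the 5 ratios (adjusted p from 0.19 to 0.76).

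MDM2, the ubiquitin ligase that degrades p53, was not called by its brightest probe either, which lies at chr12:67489279-67489338 (NCBI36) in the coding sequence and reads as follows.
MDM2: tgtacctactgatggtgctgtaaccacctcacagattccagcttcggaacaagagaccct
Its ratios were -0.78, -0.04 and 0.00 for miR-181d, -0.10, 0.15 and 0.09 for miR-565, 0.14, -0.01 and -0.21 for miR-574-3p, 0.15, 0.15 and 0.16 for miR-629*, and -0.07, 0.17 and 0.12 for miR-766. The adjusted p ran from 0.23 to 0.95. A second, dim probe at chr12:67520089-67520148 was higher in the mimic channel for miR-574-3p, at 1.09, 0.78 and 0.69 (fitted 0.85, SE 0.17, adjusted p = 0.010 in limma). There the mimic signals were 15.5, 15.7 and 15.1 and the antagomir signals 7.28, 9.16 and 9.31, with the antagomir signals of the other 12 arrays between 5.86 and 18.6. Without replicate 1 or replicate 2 of miR-574-3p this call was lost, and with normexp and loess the log2 ratio was 0.15. The 2 MDM2 probes thus gave different calls, and the brighter showed no change that passed the test.

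BBC3, which encodes the BH3-only protein PUMA, showed the same kind of split. Its 2 brighter probes were called in no ratio, while its dimmest probe, at chr19:52416927-52416986 (NCBI36), was called as lower for miR-181d (-0.56, -0.41 and -0.65; adjusted p = 0.035 in limma), miR-574-3p (-0.58, -0.66 and -0.60; 0.021) and miR-629* (-0.60, -0.60 and -0.39; 0.028). For miR-766 it was at -0.55, 0.03 and -0.62, and for miR-565 at 0.21, -0.56 and -0.28. Leaving out any array of a miRNA ended its BBC3 call. Of the other genes with several probes, MDM4, an inhibitor of p53 related to MDM2, had a brightest probe that was lower in the mean over the 5 miRNAs (-0.14, adjusted p = 0.040) and a dimmer one that was higher (0.27, adjusted p = 0.0083). The MDM4 call of the brightest probe was lost in 13 of 26 alternatives.

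In the antagomir channel alone, 5 of the 33 genes were called for at least 1 miRNA against the others, where 14.2% of all genes were, and in the mimic channel none was in limma, where 0.295% of all genes were and 8 of the 33 had an unadjusted p under 0.05 for at least 1 miRNA. These counts moved with the fit: with the slide as a random block 26 genes were called in the antagomir channel (60.8% of all genes) and 10 in the mimic channel (22.0%), and with median scaling within the dye 12 were in the antagomir channel (34.4%). Besides ZMAT3 the 5 genes were FAS, SFN, TP53INP1 and SESN1. FAS, the death receptor, was higher with the miR-574-3p antagomir by 0.22 (SE 0.06, adjusted p = 0.028 in limma), with signals of 155, 164 and 173 against 96.2 to 170 on the other 12 arrays, so the groups overlapped. SFN differed by -0.27 with the same antagomir (adjusted p = 0.0066). Without replicate 1 or replicate 3 of miR-574-3p, neither FAS nor SFN was called, and with median scaling FAS was not. TP53INP1, a stress protein that promotes autophagy and p53-dependent death, differed by -0.34 with the miR-181d antagomir (adjusted p = 0.0075) and was higher with the miR-574-3p antagomir by 0.24 (adjusted p = 0.013). Its antagomir signals were 285, 265 and 364 for miR-181d and 396, 418 and 403 for miR-574-3p, with the other 9 arrays between 256 and 399, so neither group stood clear of the rest. SESN1, a sestrin that restrains mTORC1, was higher with the miR-766 antagomir by 0.30 (adjusted p = 0.036), at signals of 103, 135 and 144 against 63.3 to 121 elsewhere. The SESN1 call was lost without any 1 of the miR-766 arrays, without replicate 2 of miR-565, replicate 2 of miR-574-3p or replicate 3 of miR-629*, without the intensity trend and with no filter on dim probes. The miR-766 arrays were alone on slide 4, so miRNA and slide cannot be told apart.

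Over the 5 miRNAs together most of the called p53 target genes were higher in the antagomir channel. In the mean of the 5 ratios 17 of 33 genes were called, where 41.7% of all genes were, and 15 of them were lower in the mimic channel, where 18.6% of all genes were called as lower. The median of the mean ratios was -0.07 for the p53 target genes and 0.01 over all genes. A second list, of 20 further p53 targets, had 5 called in the mean, 2 lower and 3 higher, with a median of 0.02. Without replicate 1 of miR-565, 11 of the 20 were called, 6 lower and 5 higher, where 58.0% of all genes were. Of the 21 cell cycle genes described further on, 9 were called in the mean, 6 lower and 3 higher, with a median of -0.06. Without that array 18 of them were called, 13 lower and 5 higher. Of the 8 epithelial and A549 markers 6 were called in the mean, 2 lower and 4 higher. KRT8 was lower in all 5 miRNAs (log2 ratios from -0.46 to -0.30) and ALDH3A1 was called as lower in 4 (from -0.69 to -0.34 over the 5). KRT18 lay above 0 for all 5 (0.07 to 0.25) and was called as higher for miR-181d (0.22) and miR-574-3p (0.23). AKR1B10 lay above 0 for all 5 as well (0.02 to 0.31), without a call in the single ratios. Of 5 tested markers of other cell types 1 was called in the mean, GFAP, higher at 0.35 (adjusted p = 0.00059 in limma). Of these 5, 3 had an unadjusted p under 0.05, and their median was 0.15. Without replicate 1 of miR-565, 2 of the 5 were called, both higher. The part of all these markers in the lean was not tested. Since every array had the mimic in Cy5, this lean cannot be told apart from a dye effect, and with the slide as a random block no p53 target gene was called in limma (5 of 33 at an unadjusted p under 0.05), where 0.235% of all genes were.

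By role, the arrest genes SFN (-0.25 on the log2 scale), PLK3 (-0.17) and GADD45A (-0.10) were called as lower in the mean, and BTG2, CCNG2, CDKN1A and PLK2 were not called. Among the feedback genes ZMAT3 (-0.46, set by its miR-574-3p arrays) and MDM4 were lower, CCNG1 and MDM2 were not called, and PPM1D, the phosphatase WIP1 that switches the p53 response off, was higher at 0.16 (adjusted p = 0.0022 in limma). With the probes of a gene averaged, MDM2 turned from -0.01 to 0.17 and was called (adjusted p = 0.028 in limma), and MDM4 turned to 0.023 and was not. Of the 7 tested apoptosis genes, PHLDA3 (-0.43), BAX (-0.27), APAF1 (-0.21), the scaffold of the apoptosome, and PERP (-0.10) were lower, and BBC3, PMAIP1 and TP53INP1 were not called. With the probes of a gene averaged, BBC3 was called (39.6% of all genes). The dimmest BBC3 probe had a mean of -0.46, with 13 of 15 arrays below 0. With normexp and loess BBC3, BTG2 and TP53I3 were called in the mean as well (41.2% of all genes), and with median centring CCNG2 was (43.9%). The BAX mean was set by its miR-629* and miR-766 arrays: over the 15 arrays its median was 0.04 with 8 above 0, and the third BAX probe had a mean of 0.07 and was not called. The death receptors split, with TNFRSF10A, the TRAIL receptor DR4, lower at -0.14 and TNFRSF10B, the TRAIL receptor DR5, higher at 0.11, both called, while FAS and EDA2R were not called. The TNFRSF10B call was lost in 11 of 26 alternatives.

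Of the repair genes XPC (-0.17), which recognises helix distortions, and DDB2 (-0.05) were lower, and POLK and RRM2B were not called. The DDB2 call was lost in 16 of 26 alternatives. XPC was the only 1 of the 33 genes below 0 on all 15 arrays, from -0.23 to -0.01, where 2.41% of all genes were. Without replicate 1 of miR-565, XPC was called as lower in all 5 ratios, and so were PHLDA3 and SESN2. The share of all genes called as lower in all 5 was not counted. The stress genes SESN2 (-0.17) and FDXR (-0.12) were lower, as was GDF15 (-0.13), a secreted factor of the TGF-beta family, while SESN1, TP53I3 and IGFBP3 were not called. The 16 genes without a call had mean ratios from -0.10 (PMAIP1) to 0.13 (POLK). The adjusted p of the 17 calls ran from 1.2e-05 (PHLDA3) to 0.046 (DDB2).

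**Figure D5:**
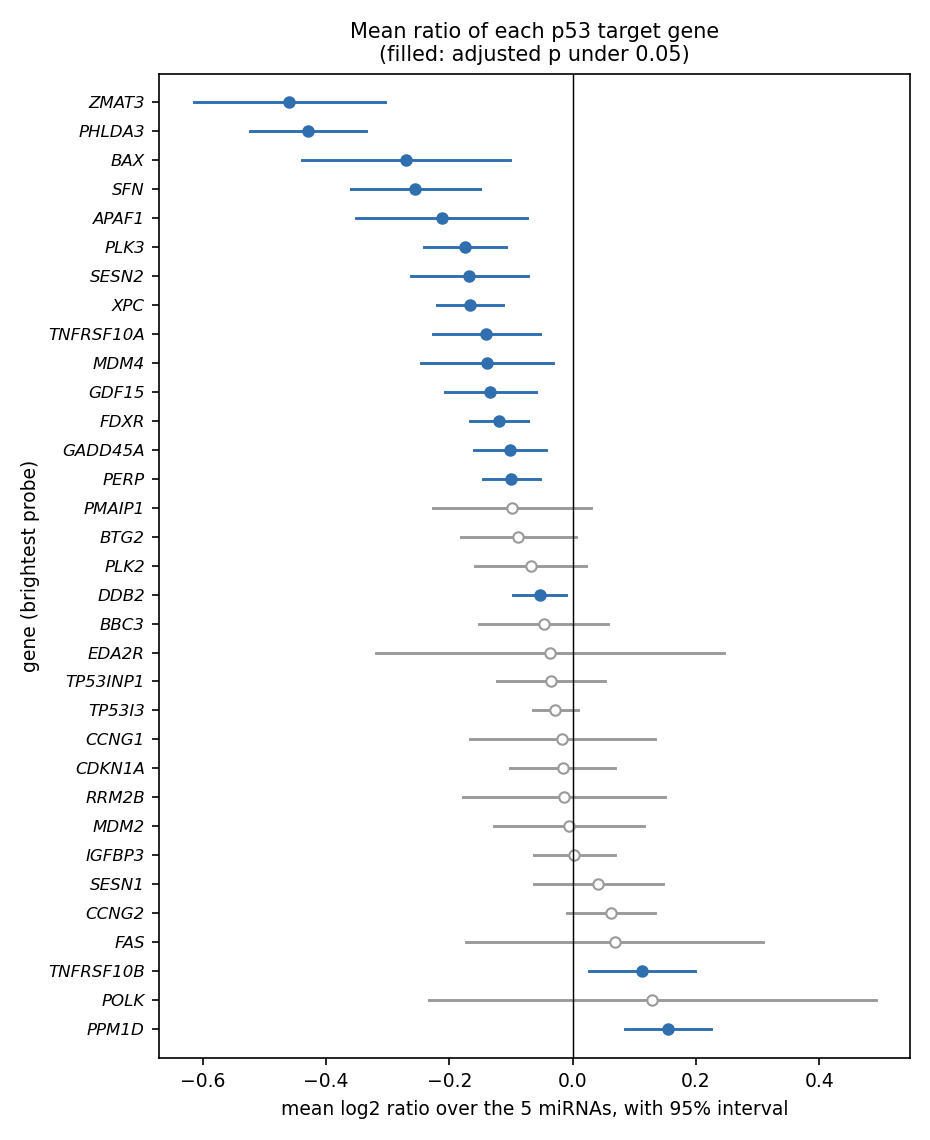
Points are the mean over the 5 miRNAs of the log2 ratio of mimic over antagomir for each of the 33 genes (brightest probe), with lines for the 95% interval from limma and filled blue points for an adjusted p under 0.05. The intervals of the 15 genes called as lower lie left of 0, from ZMAT3 at -0.46 to DDB2 at -0.05, and PPM1D and TNFRSF10B lie right of it.

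Replicate 1 of miR-565 bore on the counts for the 5 ratios and their mean, through its own values and through the spread that all miRNAs share in the fit. In the separate channels the same 5 genes were called without it in the antagomir channel, where 11.1% of all genes were, and none in limma in the mimic channel, where 0.482% were. On that array POLK was at -2.40, EDA2R at -1.81, FAS at -1.54, RRM2B at -1.10 and CCNG1 at -1.03, while the other 2 arrays of miR-565 had these genes between -0.29 and 0.40. Its mimic signals were low there, at 88.4 for POLK, where the other 14 arrays had 293 to 650, and at 54.5 for FAS, where they had 119 to 190. The array thus differed from its replicates gene by gene and not by a common factor, since CDKN1A and SFN were higher on it than on any other array.

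When that array was left out, more genes were called, at the same log2 ratios for the other 4 miRNAs. For miR-766, 15 of 33 p53 target genes were called, 14 of them lower and POLK higher, where 19.5% of all genes were called. Besides PHLDA3 and PLK3, the lower genes were BAX, BTG2, CDKN1A, FDXR, GADD45A, GDF15, PLK2, SESN2, SFN, TNFRSF10A, TP53I3 and XPC, with log2 ratios from -0.65 (BAX) to -0.14 (PLK2). For miR-629* 13 were called (10 lower) against 36.0% of all genes, for miR-574-3p 11 (9 lower) against 23.1%, for miR-181d 10 (6 lower) against 28.2%, and for miR-565 7 (6 lower) against 16.3%. In the mean of the 5 miRNAs 22 were called, 17 of them lower, against 58.0% of all genes. The 17 calls of all 15 arrays were among them, and the 5 added were BTG2 (-0.12) and CDKN1A (-0.05), lower, and FAS (0.19), POLK (0.31) and RRM2B (0.07), higher. The share called was 45.5% of the p53 target genes for miR-766 and between 21.2% and 39.4% for the other miRNAs. FAS, at 0.28 for miR-181d, 0.30 for miR-565 and 0.26 for miR-629*, was called as higher in these 3, and its values for miR-574-3p were -0.18, 0.08 and -0.08. The share of all genes called as lower was not counted without that array. The miR-766 arrays were alone on slide 4, so miRNA and slide cannot be told apart in its counts. With all 15 arrays and the slide as a random block, no p53 target gene was called for miR-766 in limma (0% of all genes).

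Between replicate arrays the p53 target genes varied somewhat less than all genes tested, with a lower median SD for each of the 5 miRNAs. The median SD of the 3 replicates lay between 0.07 (miR-574-3p) and 0.20 (miR-565) for the 33 genes and between 0.09 and 0.33 over all genes. The 2 sets were not matched for signal. In both channels of all arrays 32 of the 33 genes were well above background, while that filter left 19262 of the 23012 genes tested. The part of signal in the SD was not tested. The median range of the 5 group means was 0.32 for the p53 target genes and 0.35 over all genes. ZMAT3 had the widest range, 2.86 with a pooled replicate SD of 0.24, and XPC the narrowest, 0.05 with 0.07.

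Genes around the p53 network were counted in the same way, against the shares of all genes given above (6.36% for miR-181d, 14.3% for miR-565, 5.47% for miR-574-3p, 10.7% for miR-629* and 2.30% for miR-766). Of 20 regulators of p53, such as ATM, CHEK2 and USP7, none was called in limma for miR-181d or miR-766 (6 and 3 at an unadjusted p under 0.05), 2 for miR-565 and 1 each for miR-574-3p and miR-629*. USP7, the deubiquitinase that stabilises MDM2 and p53, was lower at -0.17 for miR-565 and -0.15 for miR-574-3p. The other miR-565 call was CREBBP, an acetyltransferase of p53, higher at 0.43, and the miR-629* call was the CDKN2A probe, higher at 0.41, whose signal need not come from that gene. Of 20 further p53 targets 1 was called for miR-565 (CX3CL1, higher at 0.65) and 1 for miR-629* (LRDD, lower at -0.27), and none in limma for the other 3 (3 or 4 at an unadjusted p under 0.05). Of 21 cell cycle genes that p53 lowers through p21 and the DREAM complex, 1 was called for each miRNA. CCNB1, the mitotic cyclin B1, was higher for miR-181d (0.19), miR-629* (0.16) and miR-766 (0.15), CCNB2 was lower for miR-565 (-0.20), and CDC25A, a phosphatase that drives entry into S phase, was lower for miR-574-3p (-0.29). In limma no gene of these 3 lists was called for any miRNA against the others, where at an unadjusted p under 0.05 each list had at most 5. Without replicate 1 of miR-565, USP7 was still called for miR-565 (-0.19), while CREBBP (0.19), CX3CL1 (0.32) and CCNB2 (-0.08) were not. The counts for the 5 miRNAs were then 3 to 11 of the 20 regulators, 1 to 6 of the 20 further targets and 4 to 8 of the 21 cell cycle genes, against the shares of all genes without that array given above.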

How the data were processed

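RNA of A549 cells was hybridised to 15 dual-color 60-mer arrays, 3 per miRNA, grouped by their labels. The spot tables that the authors deposited came from Agilent's Feature Extraction software, version 9.5.3.1. From them the processed intensity of each channel was taken, in which the authors' software had subtracted background and brought both dyes to a common scale by LOWESS. The deposited raw intensity, the deposited log10 ratio (identical in the series table) and the error of that ratio, a score deposited by the authors, served as alternatives. The Rosetta Resolver step of the methods was not repeated.

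Control spots (1639 per array) and 2296 outlier spots were left out, no spot was saturated, and repeated spots were averaged. The log2 ratio of Cy5 over Cy3 was fitted in limma 3.58.1 (R 4.3.3; lmFit, eBayes with an intensity trend), 1 coefficient per miRNA. A probe was tested if 3 or more arrays had it well above background in 1 of the channels, with Benjamini-Hochberg adjustment over all 31345 of them. A gene was read from its brightest probe. Each channel was also tested after quantile normalization within the dye. Probe signals are not comparable between probes, and the small number of arrays limits the precision.

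The genes named are CDKN1A, MDM2, the genes called, and those whose probes differ. The p53 target genes and the other lists were chosen with earlier results of these data known. The fit was also run on simulated data, and no result given here rests on that run. Alternatives were normexp with loess, median centring, the series table, error weights, only the arrays of 1 miRNA, no trend, replicate and slide blocks, other filters, averaged probes of a gene, the thresholds of the methods, outliers kept, and each array left out.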

Additional observations from a re-analysis of the deposited data

Results flagged for a closer look

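1 result was marked because the effect of 1 miRNA differed from that of the others in a test of the difference itself. The log2 ratio of ZMAT3 for miR-574-3p was lower than the mean of the other 4 miRNAs by -2.51 (SE 0.18, adjusted p = 1.2e-05 in limma), on all 3 arrays, and the antagomir signal carried the difference. Under the alternatives tried it lay between -2.71 and -0.98 and was called in each of them. No group had the 4 arrays that a test for a single deviating sample needs.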

How the results depend on the processing

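The counts of called genes changed with the processing and with the form of the fit. The share of all genes called under the same fit stands in parentheses. Normexp with loess gave 4 genes for miR-181d (9.12%), 2 for miR-565 (12.4%) and 7 for miR-629* (13.9%). No filter on dim probes gave 4 for miR-181d (9.97%). For miR-565, median centring (16.8%), the filter on both channels (15.6%) and the mean of a gene's probes (12.7%) each gave 1. The 3 arrays of a miRNA alone gave 12 for miR-574-3p (26.5%), 8 for miR-629* (23.8%) and 5 for miR-766 (4.99%). Without the intensity trend 2 were called for miR-629* (9.26%). Thresholds after the methods (a ratio under 0.5, p at most 0.001 and a signal of at least 20, here in the brighter channel, with a ratio over 2 added for the other direction) left 1 for miR-574-3p (0.222%) and 0 for miR-181d (0.0304%), miR-629* (0.282%), miR-766 (0.0348%) and the mean ratio (0.174%). Error weights (0.0521%), no trend (0.0435%) and the filter on both channels (0.0675%) each gave 1, ZMAT3, for miR-629* against the other miRNAs. With the slide as a random block, whose consensus correlation was 0.73, 1 gene was called for miR-574-3p (0.478%) and 0 for miR-629* (0.0304%) and miR-766 (0% of all genes). For miR-181d, which shared its slide only with replicate 1 of miR-565, the block gave 3 (5.81%), and 11 against the others (31.9%). It gave 0 in the mean ratio (0.235%), 26 in the antagomir channel (60.8%) and 10 in the mimic channel (22.0%). Median scaling within the dye gave 12 in the antagomir channel (34.4%). The causes were not tested.

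Without 1 replicate the counts were 0 to 10 for miR-181d (0.452% to 28.2% of all genes), 1 to 7 for miR-565 (16.3% with the 7 calls and 28.1% with 2, without replicate 2), 1 to 11 for miR-574-3p (1.03% to 23.1%), 0 to 13 for miR-629* (1.14% to 36.0%) and 0 to 15 for miR-766 (0.187% to 19.5%), the highest count each time without replicate 1 of miR-565, a fit added after seeing the data. Against the other miRNAs they were 0 to 1 for miR-181d (0% to 0.522%), 1 to 3 for miR-574-3p (0.339% to 5.73%) and 0 to 1 for miR-629* (0.0304% to 0.278%), and in the antagomir channel 3 to 6 (2137 to 3382 of all genes). When the probes of a gene were averaged, the mean ratio turned from -0.14 to 0.023 for MDM4 (adjusted p = 0.71) and from -0.01 to 0.17 for MDM2 (adjusted p = 0.028). The ZMAT3 calls for miR-574-3p held in each alternative run.

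The replicate numbers were not used to pair the arrays in the main fit, and whether they mark a shared batch cannot be told from these values. Same-numbered arrays of different miRNAs deviated together with correlations from -0.39 to 0.51 (median 0.057, 13 of 30 over 0.1). The median for arrays with other numbers was -0.046, and 7 of 15 arrays correlated best with their own number. With the replicate number as a block 2 genes were called for miR-181d (5.25% of all genes), 0 for miR-565 (16.1%), 2 for miR-574-3p (5.17%), 4 for miR-629* (2310 of 23012 genes) and 2 for miR-766 (1.54%), 1 for miR-574-3p against the others (1.08%), and 16 in the mean ratio (41.9%), where MDM4 lost its call.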
